A study of Homo sapiens with 36 samples.

Results

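Docosahexaenoic acid (DHA) was given to human liver cells together with propionate (PRO), and RNA was sequenced after 24 h. The comparison takes 6 of the 36 samples of the series, chosen by their labels: 3 libraries of DHA+PRO 24hrs and 3 of PRO 24hrs, with replicate numbers 1 to 3 in both. The cells were HepG2, an established human hepatoma line, treated in serum-free medium. PRO cells received 70 µM propionate, a short-chain fatty acid made by gut bacteria, and DHA + PRO cells received 50 µM DHA, a long-chain n-3 polyunsaturated fatty acid, beside the same propionate. Both sides therefore contain propionate, and the difference between them is the effect of DHA where propionate is present. DHA was given from ethanol on bovine serum albumin. The methods state matching albumin and ethanol for control cells but not for PRO cells. An effect of this vehicle therefore cannot be told apart from that of DHA. Each library pooled the RNA of 3 culture wells of 1 experiment, and the 3 experiments were independent cultures of 1 cell line. The other groups used for comparison were vehicle control (Ctrl), DHA alone, 20 µM protocatechuic acid (PCA, a phenolic acid), DHA + PCA, and the same PRO and DHA + PRO treatments at 6 h, with 3 libraries each.

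Liver cells make cholesterol from acetyl-CoA through mevalonate and squalene, and make fatty acids from the same precursor. Both routes are switched on by sterol regulatory element-binding proteins (SREBPs), transcription factors that are held in the endoplasmic reticulum and cut free when sterols are low. SREBP-2 mainly drives cholesterol synthesis and uptake, SREBP-1c mainly drives fatty acid synthesis, and polyunsaturated fatty acids are known to lower SREBP-1 activity in liver. Polyunsaturated fatty acids also oxidize readily, and oxidation products are known to activate NRF2, a factor that switches on detoxifying and glutathione-linked enzymes. Fatty acids are ligands of PPARα, which drives fatty acid oxidation.

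The 6 libraries held 6016414 to 42326734 counts on 18932 RefSeq genes. DHA + PRO replicate 2 was by far the deepest, with 6.22 times the median depth of the 17 remaining 24 h libraries, which ran from 5617341 to 8657882. All 12 hepatocyte markers were expressed, their sum ran from 69155 to 74820 CPM (counts scaled to a common library size) in the 6 libraries, and none of them was called changed. Endothelial markers summed to between 0.332 and 1.15 CPM, with 2 of the 5 (PECAM1, CDH5, VWF, KDR, TEK) at 0 in all 6 libraries. Fibroblast markers summed to between 13.3 and 19.6 CPM and blood markers to between 44.2 and 57.9 CPM, most of it CD68. Fewer cells of a type and less RNA per cell cannot be told apart in these bulk samples. PRO replicate 1 stood apart in base composition: against the mean of the 18 libraries of 24 h, with the genes sorted by transcript GC content into 5 bins of equal size, those of its lowest bin were shifted by 0.29 (median, log2 scale) and those of its highest bin by -0.35. The highest bin minus the lowest came to -0.64 in this library and to between -0.26 and 0.25 in the other 17.

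DHA on top of propionate changed 99 of 11893 tested genes, which is 0.832% (edgeR quasi-likelihood test with the replicate number as a block, Benjamini-Hochberg adjusted p of at most 0.05 and average log2 CPM above 0). Of these, 73 fell (0.614% of the genes tested) and 26 rose (0.219%), and 1799 genes (15.1%) had an unadjusted p under 0.05. The changes were small: the median size among called genes was 0.50 on the log2 scale with a range of 0.29 to 1.87, only 3 genes reached 1 and 48 were under 0.5. All 99 moved in the same direction in each of the 3 pairs of libraries. For 89 of them the 3 DHA + PRO libraries lay wholly above or below the 3 PRO libraries, against 12.9% of all genes tested. Both counts follow in part from selecting the 99 on these same libraries and are no separate support. The count depended on the libraries: it was 27 without the replicate block, 49 without PRO replicate 1, 56 without PRO replicate 3, 37, 47 and 141 without DHA + PRO replicate 1, 2 and 3, and 1464 without PRO replicate 2. No call changed sign in any of these fits. The last genes to pass were SLC25A16, C20orf24 and WDFY3, with adjusted p from 0.0465 to 0.0499, and the first to miss were TRUB2, TP53INP2 and CRIP2, with 0.0505 to 0.0507.

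**Figure D1:**
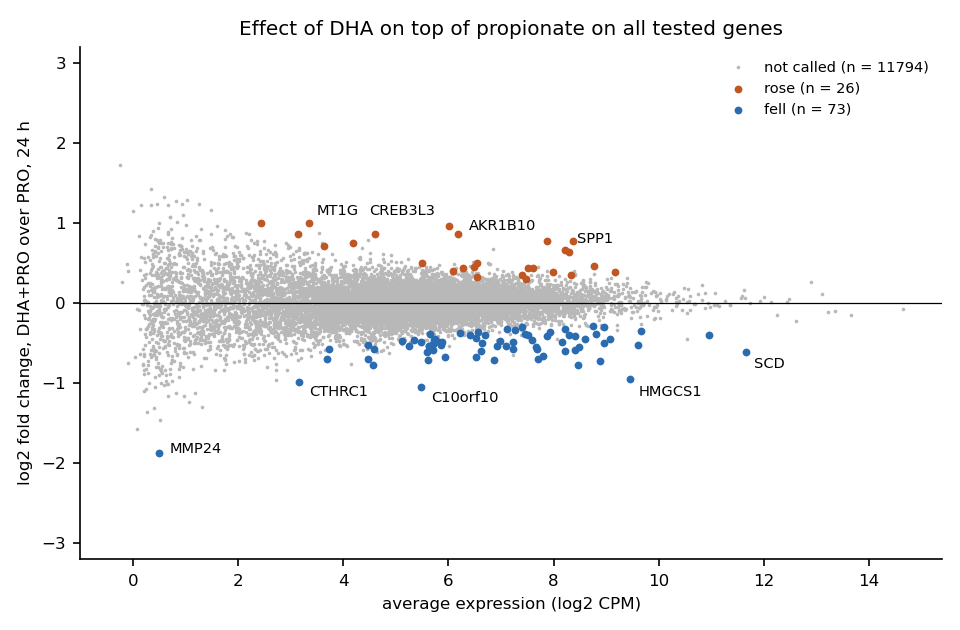
Log2 fold change of DHA + PRO over PRO at 24 h (vertical axis) against average expression in log2 CPM (horizontal axis, log scale) for the 11893 genes tested. The 73 genes that fell are blue, the 26 that rose are orange and all others grey. HMGCS1 and SCD stand out among highly expressed genes that fell.

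Among called genes without overlap between the groups, the 10 largest falls were MMP24, CTHRC1, HMGCS1, SMPDL3A, ACSL4, CCL20, CPEB4, ACSS2, AGR2 and SLCO4C1, from -1.87 to -0.67 on the log2 scale. MMP24 had the largest fold but was hardly expressed, with 1.83, 2.46 and 1.87 CPM with PRO and 0.995, 0.499 and 0.426 CPM with DHA + PRO. HMGCS1, which encodes the synthase that makes HMG-CoA, and ACSS2, which makes acetyl-CoA from acetate, are enzymes of lipid synthesis. ACSL4 joins coenzyme A to long polyunsaturated fatty acids, and its level fell by 39.3% (log2 fold change -0.72 ± 0.10 SE, edgeR adjusted p = 0.000281). SMPDL3A is a sphingomyelinase-like phosphodiesterase known as a target of the oxysterol receptor LXR, and CCL20 is a chemokine. The 10 largest rises were ZNF185, MT1G, CREB3L3, OSGIN1, AKR1B15, AKR1B10, AKR1C2, RTN4RL2, C20orf24 (now RAB5IF) and CPLX2, from 1.00 to 0.66. They include the metallothionein MT1G, the liver transcription factor CREB3L3 and 3 aldo-keto reductases. ZNF185 and MT1G were low, at 2.18 to 8.09 CPM and 3.76 to 14.1 CPM over the 6 libraries, and AKR1B15 ran from 5.04 to 12.6 CPM.

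Both lists of cholesterol synthesis had lower medians than any other of the 16 pathway lists. In its mevalonate arm, the steps from acetyl-CoA to farnesyl diphosphate, 5 of 9 tested genes fell and none rose, with a median log2 fold change of -0.45. From squalene to cholesterol, 7 of 13 fell, none rose and all 13 had a negative estimate (49% of all tested genes were negative and 51% positive), with a median of -0.39. The median over all genes tested was 0.0041. Without PRO replicate 1 the counts were 6 and 7, without the deep DHA + PRO replicate 2 they were 5 and 5, and without the replicate block they were 4 and 4. Over all fits that left out libraries they ran from 3 to 6 and from 4 to 10. With an offset for transcript GC content in each library, an alternative added after the data were seen, they were 6 and 10.

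HMGCS1 (chr5:43287572-43313614, - strand in hg19), the synthase at the head of the route, had 1145, 790.1 and 881 CPM with PRO and 436, 474 and 539.6 CPM with DHA + PRO. All DHA + PRO libraries lay below all PRO libraries, and PRO replicate 1 was the highest of the 6. Its level fell by 48.3% (log2 fold change -0.95 ± 0.11 SE, edgeR adjusted p = 1.19e-05), the largest change of any cholesterol gene here. IDI1, the isomerase of the isoprenoid building block, went from 264 ± 48.0 to 167 ± 5.46 CPM (mean ± SD, n = 3) without overlap (log2 fold change -0.66 ± 0.10 SE, edgeR adjusted p = 0.00081). FDPS, which makes farnesyl diphosphate, changed by -0.49 ± 0.068 (adjusted p = 0.000183) and ACAT2, the thiolase of the first step, named after its values were seen, by -0.41 ± 0.069 (adjusted p = 0.00166) on the log2 scale in edgeR. MVD and MVK, the decarboxylase and the kinase of the arm, were the most highly expressed members that did not pass, at -0.45 ± 0.14 (adjusted p = 0.137) and -0.14 ± 0.10 (adjusted p = 0.537). MVD ran from 184 to 365 CPM with PRO and from 168 to 228 CPM with DHA + PRO, so its groups overlapped. With the GC offset MVD passed, at -0.63 (edgeR adjusted p = 7.13e-08), and MVK did not, at -0.25 (edgeR adjusted p = 0.09).

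Behind squalene, the lanosterol demethylase CYP51A1 had 269, 239.5 and 219 CPM with PRO and 158, 168 and 162 CPM with DHA + PRO. The methylsterol oxidase MSMO1 had 431, 384 and 379 CPM with PRO and 249, 277 and 272 CPM with DHA + PRO. Neither gene overlapped between the groups, and both fell by about the same amount (-0.58 ± 0.074 (adjusted p = 6.23e-05) and -0.58 ± 0.074 (adjusted p = 5.53e-05) on the log2 scale in edgeR). FDFT1, squalene synthase, had 857, 838 and 996 CPM with PRO and 582, 607 and 677 CPM with DHA + PRO, a fall of 30.6% (adjusted p = 1.19e-05). LSS, which closes the ring to lanosterol, had a larger estimate at -0.68 ± 0.11 (adjusted p = 0.000726), but replicate 1 of PRO with 84.9 CPM lay below replicate 3 of DHA + PRO with 89.0 CPM. SQLE, the squalene epoxidase, fell less, from 505 ± 47.8 to 387 ± 7.76 CPM (mean ± SD, n = 3) (log2 fold change -0.39 ± 0.07 SE, edgeR adjusted p = 0.00329). DHCR7, a reductase of the last steps, did not pass and overlapped, at -0.32 ± 0.08 (adjusted p = 0.0585). With the GC offset DHCR7 passed, at -0.40 (edgeR adjusted p = 7.03e-06). HSD17B7, SC5D and C14orf1 (now ERG28, a scaffold of sterol enzymes) also fell, by 0.53, 0.46 and 0.55 on the log2 scale, and are named after their values were seen.

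**Figure D2:**
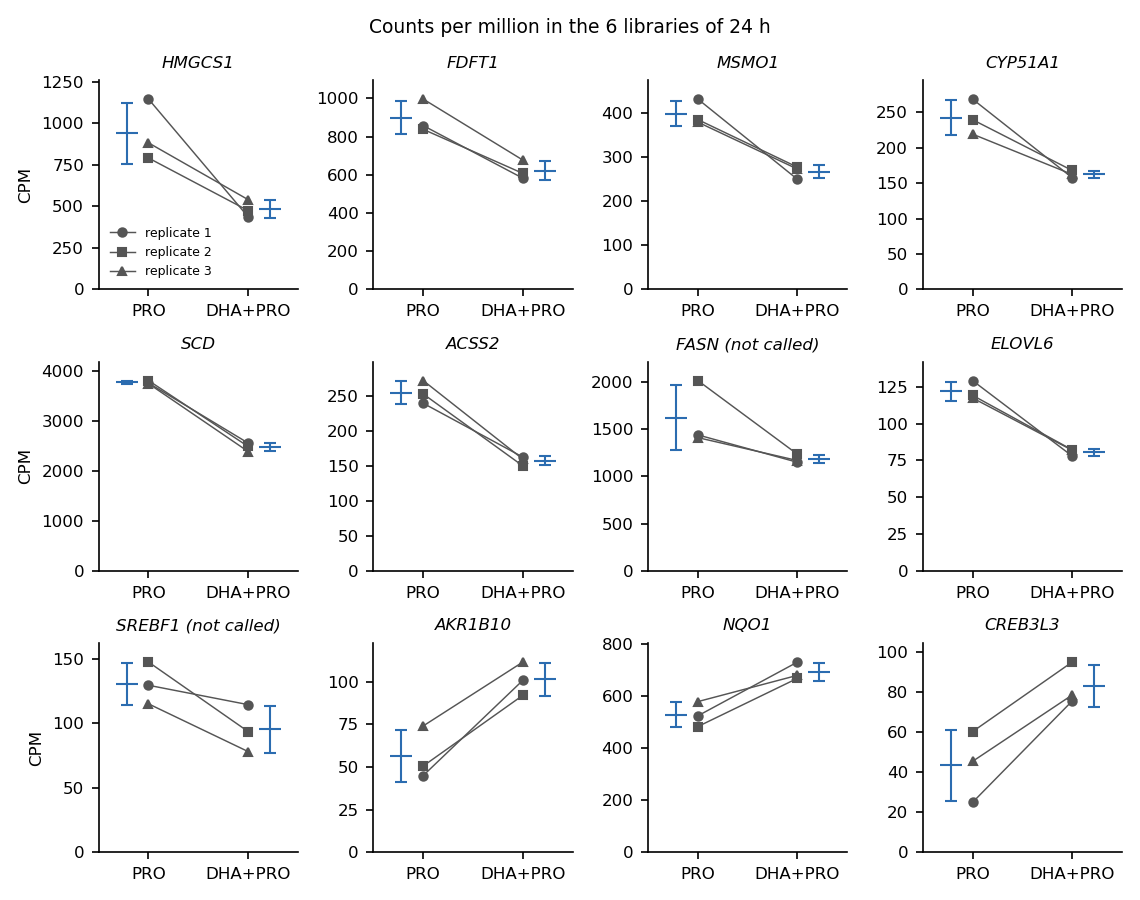
CPM on TMM-scaled library sizes (vertical axes, from 0) of 12 genes in the PRO and DHA + PRO libraries of 24 h (horizontal axes). Grey symbols joined by lines are the libraries of 1 replicate number, and blue bars are the mean and SD of 3 libraries. HMGCS1, FDFT1, MSMO1, CYP51A1, SCD, ACSS2 and ELOVL6 were lower in every DHA + PRO library, AKR1B10, NQO1 and CREB3L3 were higher in every one, and FASN and SREBF1 were lower without passing the test.

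The sequence before the start of 5 of these genes shows which letters known for SREBP and NRF2 targets they hold. The 250 bases before the RefSeq start are from GRCh38.p14, 5′ to 3′ on the gene's strand, and capitals mark matches on either strand to 3 searched motifs. These were TCACNCCAC (a sterol regulatory element), CCAAT (bound by NF-Y, a known partner of SREBP) and TGACNNNGC (the core of the antioxidant response element bound by NRF2). HMGCS1 (chr5:43313413-43313662, - strand), MSMO1 (chr4:165327419-165327668, + strand) and SCD (chr10:100346983-100347232, + strand) are shown as genes that fell, SREBF2 (chr22:41832855-41833104, + strand) as the gene of SREBP-2, and GPX2 (chr14:64942746-64942995, - strand), chosen after its values were seen, as a gene that rose.
HMGCS1: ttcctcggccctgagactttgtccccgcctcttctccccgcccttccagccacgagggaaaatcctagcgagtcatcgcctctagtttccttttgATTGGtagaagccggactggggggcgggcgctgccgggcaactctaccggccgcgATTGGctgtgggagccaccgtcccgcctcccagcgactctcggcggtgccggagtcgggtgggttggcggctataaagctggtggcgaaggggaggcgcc
MSMO1: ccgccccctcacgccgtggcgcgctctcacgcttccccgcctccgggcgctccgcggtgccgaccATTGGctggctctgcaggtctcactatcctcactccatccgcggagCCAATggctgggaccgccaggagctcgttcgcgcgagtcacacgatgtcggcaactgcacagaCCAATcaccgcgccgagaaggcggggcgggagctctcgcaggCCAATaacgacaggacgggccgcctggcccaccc
SCD: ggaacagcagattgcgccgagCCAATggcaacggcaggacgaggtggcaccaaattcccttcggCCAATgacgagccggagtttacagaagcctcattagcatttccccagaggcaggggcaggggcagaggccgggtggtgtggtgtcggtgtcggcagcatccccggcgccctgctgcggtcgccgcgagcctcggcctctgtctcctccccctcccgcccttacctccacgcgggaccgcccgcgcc
SREBF2: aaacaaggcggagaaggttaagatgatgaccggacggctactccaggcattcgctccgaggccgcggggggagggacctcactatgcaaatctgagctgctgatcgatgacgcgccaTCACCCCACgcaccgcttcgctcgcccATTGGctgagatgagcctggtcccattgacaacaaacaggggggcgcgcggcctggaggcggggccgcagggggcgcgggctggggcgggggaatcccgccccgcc
GPX2: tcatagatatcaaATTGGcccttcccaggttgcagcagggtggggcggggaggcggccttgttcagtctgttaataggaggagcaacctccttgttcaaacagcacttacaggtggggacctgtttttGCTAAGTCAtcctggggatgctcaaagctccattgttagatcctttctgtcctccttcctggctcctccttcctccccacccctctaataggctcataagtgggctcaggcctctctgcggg
HMGCS1 and SCD hold 2 CCAAT matches each in this stretch and MSMO1 holds 4, none of them with TCACNCCAC. SREBF2 holds TCACCCCAC beside 1 CCAAT match, and GPX2 holds 1 antioxidant core and 1 CCAAT match. In the RefSeq promoters of 300 bases (250 before to 50 after the start), CCAAT was present in 14 of 17 genes of both cholesterol lists, in 35 of 57 called falls and in 11 of 20 called rises, against 43.5% of 9783 tested genes. TCACNCCAC was present in none of the 17, in 1 fall and in no rise, against 1.49% of tested genes. The antioxidant core was present in 9 of 57 falls, 5 of 20 rises and 4 of 17 genes of the NRF2 list, against 19.5%. A promoter was matched for 77 of the 99 called genes. The matches describe letters only, and no binding was measured.

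Genes of sterol uptake and traffic moved in the same direction in part: 4 of 13 tested fell and none rose, with a median of -0.17. Among those that fell, STARD4, a cholesterol carrier, had 59.7, 49.8 and 56.7 CPM with PRO and 37.3, 36.2 and 43.0 CPM with DHA + PRO, and TMEM97 had 334, 307 and 341 CPM with PRO and 256, 267 and 262 CPM with DHA + PRO. They changed by -0.54 ± 0.11 (adjusted p = 0.0132) and -0.32 ± 0.066 (adjusted p = 0.0135). SCARB1, the receptor of high-density lipoprotein, and NPC2 did not pass, at 0.22 ± 0.094 (adjusted p = 0.271) and -0.023 ± 0.072 (adjusted p = 0.913). The count of 4 was 1 without the replicate block, 2 without PRO replicate 1 and 2 without DHA + PRO replicate 2. Over all fits that left out libraries it ran from 0 to 8.

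The genes of the SREBP machinery itself did not pass: 0 of 10 tested were called, with a median of -0.094. SREBF1, which encodes SREBP-1, had 129.6, 148 and 115 CPM with PRO and 115, 93.7 and 78.2 CPM with DHA + PRO. The groups did not overlap and every pair fell, but the spread was wide (log2 fold change -0.46 ± 0.13 SE, edgeR adjusted p = 0.101). SREBF2, which encodes SREBP-2, had 266, 363 and 298 CPM with PRO and 263, 278 and 289 CPM with DHA + PRO and overlapped (log2 fold change -0.16 ± 0.082 SE, edgeR adjusted p = 0.369). MBTPS1, the protease that makes the first cut in SREBPs, was at -0.018 ± 0.073 (adjusted p = 0.937), and INSIG1, the retention protein, was not tested. With the GC offset SREBF1 and SREBF2 passed, at -0.62 (adjusted p = 5.67e-07) and -0.25 (adjusted p = 0.0171); their transcripts have 63.2% and 58.5% GC against a median of 48.6% over tested genes. Of 8 tested LXR receptors and efflux targets, SMPDL3A fell (29.2, 29.9 and 25.2 CPM with PRO and 15.4, 18.2 and 15.8 CPM with DHA + PRO; log2 fold change -0.78 ± 0.13 SE, edgeR adjusted p = 0.00179). The cholesterol exporter ABCA1 had 274, 215 and 217 CPM with PRO and 193, 199 and 194 CPM with DHA + PRO, lower in every DHA + PRO library without passing (log2 fold change -0.26 ± 0.08 SE, edgeR adjusted p = 0.123), and LPCAT3 was at -0.078 ± 0.076 (adjusted p = 0.651).

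Genes of fatty acid synthesis and remodelling fell in part. Of 7 tested genes of de novo lipogenesis 3 fell and none rose (median -0.33), and of 13 desaturases and elongases 4 fell and none rose (median -0.27). ACSS2 had 239, 253 and 272 CPM with PRO and 162, 149.8 and 159.5 CPM with DHA + PRO. The 2 groups were far apart for their spread (log2 fold change -0.70 ± 0.073 SE, edgeR adjusted p = 6.77e-06). ACLY, which makes cytosolic acetyl-CoA from citrate, had 594, 556 and 605 CPM with PRO and 402, 397 and 447 CPM with DHA + PRO, with no overlap (log2 fold change -0.50 ± 0.06 SE, edgeR adjusted p = 3.1e-05). ACACA, the rate-limiting carboxylase, went from 162 ± 3.55 to 128 ± 9.62 CPM (mean ± SD, n = 3), a smaller fall of 20.4% (log2 fold change -0.33 ± 0.075 SE, edgeR adjusted p = 0.0328). FASN, the synthase that builds palmitate, had 1438, 2013 and 1409 CPM with PRO and 1148, 1233 and 1167 CPM with DHA + PRO. Every DHA + PRO library lay below every PRO library, and PRO replicate 2 was far above the other PRO libraries. The fall of 26.9% just missed the threshold (log2 fold change -0.45 ± 0.12 SE, edgeR adjusted p = 0.0668), and with the GC offset it passed, at -0.64 (adjusted p = 9.98e-11), with 65.3% GC in its transcript. The citrate carrier SLC25A1 did not pass, at -0.076 ± 0.091 (adjusted p = 0.72).

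SCD, the desaturase that makes oleate, had the smallest adjusted p of all genes. It had 3769, 3818 and 3757 CPM with PRO and 2564, 2495 and 2394 CPM with DHA + PRO. The spread within each group was small beside the gap, and the level fell by 34.3% (log2 fold change -0.61 ± 0.055 SE, edgeR adjusted p = 8.53e-07). ELOVL6, the elongase of palmitate, had 129, 119 and 117 CPM with PRO and 78.0, 82.2 and 81.9 CPM with DHA + PRO, a fall of 33.9% (adjusted p = 0.000298). HSD17B12, the reductase of the elongation cycle, and FADS1, the Δ5 desaturase that acts on polyunsaturated fatty acids, changed by -0.57 ± 0.089 (adjusted p = 0.000614) and -0.39 ± 0.068 (adjusted p = 0.00219) in edgeR. ELOVL2, which elongates the precursors of DHA, was lower in each DHA + PRO library but did not pass (284, 231 and 226 CPM with PRO and 203, 219 and 221 CPM with DHA + PRO; log2 fold change -0.21 ± 0.088 SE, edgeR adjusted p = 0.276). HACD3, a dehydratase of the same cycle, was at 0.031 ± 0.066 (adjusted p = 0.857). With the GC offset 5 members of each of the 2 lists were called, and without the replicate block 2 and 4.

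Part of the NRF2 list rose. Of 22 tested NRF2 and NADPH genes 9 rose, none fell and 20 had a positive estimate, with a median log2 fold change of 0.24. The detoxifying aldo-keto reductase AKR1B10 had 45.0, 50.6 and 74.1 CPM with PRO and 101, 92.1 and 112 CPM with DHA + PRO. The groups did not overlap and the level rose by 81.2% (log2 fold change 0.86 ± 0.098 SE, edgeR adjusted p = 1.19e-05). AKR1C2, a reductase of steroids and aldehydes, had 150.0, 184 and 249 CPM with PRO and 269, 316 and 406 CPM with DHA + PRO, with its lowest DHA + PRO library just above its highest PRO library (log2 fold change 0.77 ± 0.11 SE, edgeR adjusted p = 0.000183). Its neighbour AKR1C1 had a like estimate of 0.78 ± 0.11 (adjusted p = 0.000183), with overlap. AKR1B10 and AKR1B15, and AKR1C1 and AKR1C2, are near-identical copies whose reads can be split between them, so which copy changed is uncertain. OSGIN1, a growth inhibitor induced by oxidative stress, had 12.8, 18.4 and 22.4 CPM with PRO and 25.05, 31.6 and 39.6 CPM with DHA + PRO (log2 fold change 0.86 ± 0.14 SE, edgeR adjusted p = 0.00138).

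The other 5 called genes of the list are named after their values were seen. The quinone reductase NQO1 had 525, 484 and 580.1 CPM with PRO and 732, 669.8 and 681 CPM with DHA + PRO (log2 fold change 0.39 ± 0.069 SE, edgeR adjusted p = 0.00247). Heme oxygenase HMOX1 changed by 0.44 ± 0.093 (adjusted p = 0.016), the autophagy receptor SQSTM1 by 0.43 ± 0.088 (adjusted p = 0.0118), AKR1C3 by 0.39 ± 0.072 (adjusted p = 0.0051) and the sulfiredoxin SRXN1 by 0.33 ± 0.076 (adjusted p = 0.0331). The ferritin chains FTH1 and FTL were the most abundant members and did not pass, at 0.27 ± 0.066 (adjusted p = 0.0534) and 0.26 ± 0.076 (adjusted p = 0.107). FTH1 had 663, 860.2 and 876 CPM with PRO and 880.1, 991 and 1001 CPM with DHA + PRO, higher in each DHA + PRO library. The glutathione peroxidase GPX2, outside the list and named after its values were seen, rose (363, 346 and 476 CPM with PRO and 545, 518 and 559 CPM with DHA + PRO; log2 fold change 0.46 ± 0.082 SE, edgeR adjusted p = 0.00324). The count of 9 fell to 2 without the replicate block, to 6 without PRO replicate 1 and to 6 without DHA + PRO replicate 2, and it was 11 with the GC offset. Over all fits that left out libraries it ran from 4 to 12.

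Of 11 tested metallothionein and zinc transport genes 7 had a positive and 4 a negative estimate. Only the metal-binding MT1G was called, as a rise, with 7.67, 3.76 and 5.47 CPM with PRO and 14.1, 9.93 and 10.2 CPM with DHA + PRO (log2 fold change 1.00 ± 0.24 SE, edgeR adjusted p = 0.0433). The median of this list was 0.43, the highest of the 16 pathway lists, and the zinc transporters SLC39A4 and SLC39A10 did not pass, at 0.15 ± 0.15 (adjusted p = 0.655) and -0.29 ± 0.11 (adjusted p = 0.2). MT1G was called in 1 of the 6 fits that left out a PRO or DHA + PRO library, the one without PRO replicate 2. It was not called without the replicate block or with the deep library thinned (adjusted p = 0.0508). The list had 4 called members with the GC offset and 5 without PRO replicate 2. With the GC offset these included the metallothioneins MT1E, at 0.75 (edgeR adjusted p = 0.0169), and MT2A, at 0.53 (edgeR adjusted p = 0.0307).

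Among lipid droplet and triglyceride genes, 2 of 15 tested rose and 1 fell. The droplet coat protein PLIN2 had 260.3, 281 and 292 CPM with PRO and 345, 376 and 339 CPM with DHA + PRO, without overlap (log2 fold change 0.35 ± 0.083 SE, edgeR adjusted p = 0.0438). DGAT1, which adds the last acyl chain to triglyceride, had 151, 158 and 151 CPM with PRO and 229, 197 and 199 CPM with DHA + PRO (log2 fold change 0.44 ± 0.10 SE, edgeR adjusted p = 0.0427). LPIN1, the phosphatidate phosphatase, fell, with 67.9, 54.5 and 61.9 CPM with PRO and 40.3, 38.0 and 45.4 CPM with DHA + PRO (log2 fold change -0.59 ± 0.11 SE, edgeR adjusted p = 0.0039). GPAM and the lipase PNPLA2 did not pass, at -0.012 ± 0.066 (adjusted p = 0.954) and 0.22 ± 0.14 (adjusted p = 0.462). The count of 3 was 0 without DHA + PRO replicate 2 and 1 without PRO replicate 1 or without the replicate block.

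Of 21 tested PPARα and fatty acid oxidation genes only CREB3L3 rose and none fell, with a median of 0.027. CREB3L3, a membrane-bound transcription factor of liver that acts on triglyceride metabolism in fasting, had 24.97, 60.3 and 45.5 CPM with PRO and 75.6, 95.1 and 78.6 CPM with DHA + PRO. The groups did not overlap, PRO replicate 1 was the lowest, and the level rose by 95.1% (log2 fold change 0.96 ± 0.16 SE, edgeR adjusted p = 0.00166). FABP1, the fatty acid-binding protein of liver, was lower in each DHA + PRO library without passing, at -0.26 ± 0.089 (adjusted p = 0.17), and the oxidation enzyme HADHA was at 0.027 ± 0.062 (adjusted p = 0.87). None of 13 apolipoprotein and lipoprotein assembly genes was called, with APOB at -0.15 ± 0.056 (adjusted p = 0.215). The estimate of APOA2 was 8.3e-08, with an F statistic too small to give an SE. None of 10 tested genes of propionate uptake and catabolism was called (median 0.019), including the monocarboxylate carriers SLC16A1 and SLC16A3 at 0.06 ± 0.079 (adjusted p = 0.752) and 0.30 ± 0.14 (adjusted p = 0.327).

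Stress and growth genes did not pass either. None of 21 tested ATF4 and endoplasmic reticulum stress genes was called (median 0.069), with the chaperones CALR and HSP90B1 at 0.17 ± 0.062 (adjusted p = 0.2) and -0.091 ± 0.064 (adjusted p = 0.508). None of 23 DNA replication genes (median 0.087) and none of 18 mitosis genes (median -0.03) was called. The helicase subunits MCM3 and MCM4 were at 0.13 ± 0.063 (adjusted p = 0.343) and 0.10 ± 0.071 (adjusted p = 0.497), and TOP2A and PLK1 at -0.062 ± 0.07 (adjusted p = 0.704) and 0.16 ± 0.089 (adjusted p = 0.395). A p above the threshold does not show that these levels were equal.

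**Figure D3:**
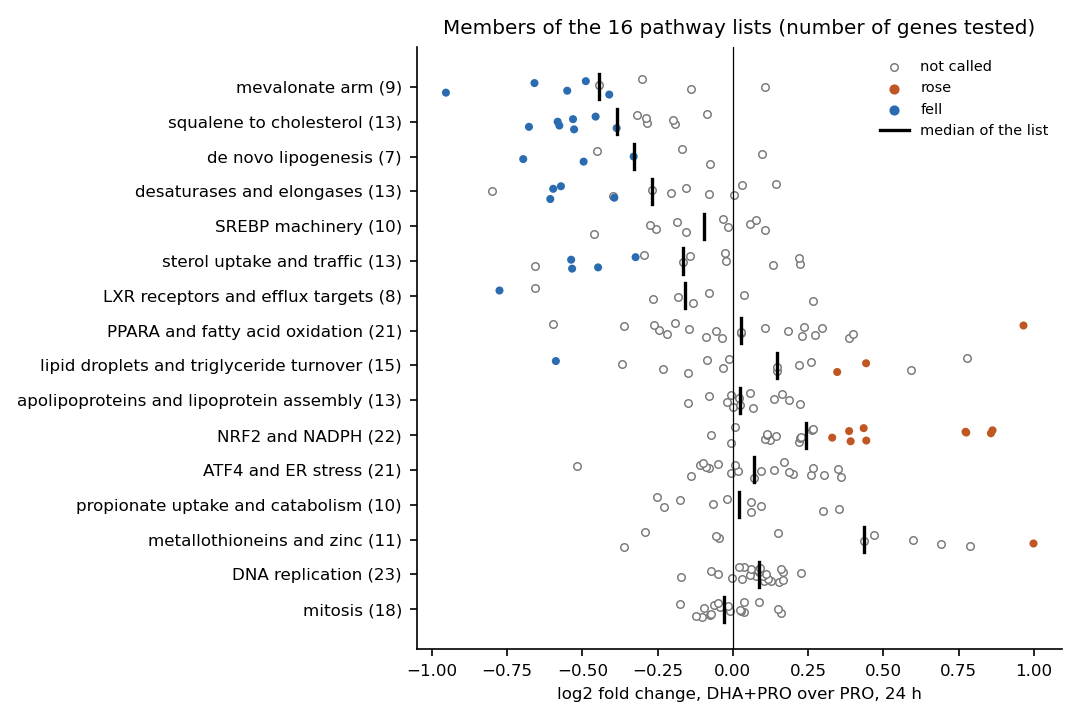
Log2 fold change of DHA + PRO over PRO at 24 h (horizontal axis) for each tested member of the 16 pathway lists (rows, with the number of genes tested). Filled points passed the test and open points did not, and black bars are list medians. Both cholesterol lists lie almost wholly left of 0, and the NRF2 list lies mostly right of it with 9 filled points.

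The effect of DHA was then set beside its effect without propionate (DHA against Ctrl) and with PCA (DHA + PCA against PCA), which share no library with it. No gene passed the test of a difference between the effects. Against the effect without PRO, 0 of 11893 genes (0%) were called, with 991 (8.33%) at an unadjusted p under 0.05 and a lowest adjusted p of 0.217. Against the effect with PCA, 0 (0%) were called, with 1834 (15.4%) under 0.05 and a lowest adjusted p of 0.177. With the GC offset, the genes under 0.05 were 874 of 11860 against the effect without PRO, with 11 called. Against the effect with PCA they were 859 of 11860, with 0 called. Other tests called few: the DESeq2 Wald test gave 2 and 11 genes and the edgeR likelihood ratio test 12 and 37. Leaving out PRO replicate 2 gave 308 and 1443, and leaving out DHA + PRO replicate 3 gave 12 and 58.

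Of the 99 genes called with PRO, 91 had the same sign without PRO and 83 with PCA, against 54.9% and 44.2% of all tested genes. Without PRO 77 genes were called (0.647%), 58 falling (0.488%) and 19 rising (0.16%), 1102 (9.27%) had an unadjusted p under 0.05, and 40 of the 99 were among them, 11 that rose and 29 that fell. With PCA 79 genes were called (0.664%), 59 falling (0.496%) and 20 rising (0.168%), 1294 (10.9%) had an unadjusted p under 0.05, and 34 of the 99 were among them. Those 34 were called in all 3 settings, 9 rising and 25 falling. In the direction of the call, the median log2 effect of the 99 was 0.32 without PRO and 0.25 with PCA, but the genes were selected on their values with PRO. Seen from the other side, the 77 genes called without PRO had a median size of 0.54 there and 0.45 in the same direction with PRO, and the 79 called with PCA had 0.53 there and 0.39 with PRO.

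For single genes, the values of the 3 settings stand side by side. SCD had 4066, 4192 and 4153 CPM with Ctrl and 2516, 2439 and 2413 CPM with DHA, and 4011, 4288 and 3926 CPM with PCA and 2536, 2584 and 2253 CPM with DHA + PCA. Its log2 effect was -0.61 ± 0.055 with PRO, -0.75 ± 0.055 without PRO and -0.73 ± 0.055 with PCA (estimate ± SE). The difference between the effects with and without PRO was 0.15 (95% interval -0.014 to 0.31, adjusted p = 0.644). In the same order AKR1B10 had 0.86 ± 0.098, 0.95 ± 0.10 and 0.85 ± 0.10, with a difference from the effect without PRO of -0.089 (95% interval -0.38 to 0.20, adjusted p = 0.886). The intervals bound these differences and do not show that the effects were equal.

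HMGCS1 had 871, 905 and 837 CPM with Ctrl and 596, 672 and 501 CPM with DHA. Its log2 effect of -0.95 ± 0.11 with PRO stood beside -0.56 ± 0.11 without PRO and -0.65 ± 0.11 with PCA, and the difference from the effect without PRO was -0.39 (95% interval -0.70 to -0.073, adjusted p = 0.528). Within the pairs with PRO, the ratio was -1.39 in replicate 1, -0.74 in replicate 2 and -0.71 in replicate 3, and with the GC offset the effect with PRO was -0.82 (adjusted p = 9.98e-11). CREB3L3 rose by 0.96 ± 0.16 with PRO and stood at 0.37 ± 0.17 without PRO, a difference of 0.59 (95% interval 0.11 to 1.08, adjusted p = 0.528). PLIN2 stood at 0.062 ± 0.083 without PRO and 0.078 ± 0.084 with PCA against 0.35 ± 0.083 with PRO, with differences of 0.28 (95% interval 0.041 to 0.53, adjusted p = 0.548) and 0.27 (95% interval 0.025 to 0.51, adjusted p = 0.288). In the other direction, FASN had -0.45 ± 0.12 with PRO, -0.61 ± 0.12 without PRO and -0.92 ± 0.12 with PCA, and SREBF1 had -0.46 ± 0.13, -0.66 ± 0.13 and -0.92 ± 0.13. Both were called without PRO and with PCA, and the differences with PCA were 0.47 (95% interval 0.13 to 0.81, adjusted p = 0.206) and 0.46 (95% interval 0.076 to 0.85, adjusted p = 0.254). Both transcripts are rich in GC, and with the GC offset both fell more with PRO, FASN by -0.64. The other effects of FASN and SREBF1 are given without the offset. With the GC offset the differences of FASN and SREBF1 from the effect with PCA did not pass either. The part of base composition in the differences of FASN and SREBF1 was not tested.

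By list, in the mevalonate arm 5 of 9 genes fell with PRO, 5 without PRO and 6 with PCA. From squalene to cholesterol 7 of 13, 7 and 9 fell, and in de novo lipogenesis 3 of 7, 4 and 4. Of the 22 NRF2 and NADPH genes 9, 8 and 9 rose. The list medians were -0.45, -0.44 and -0.47 for the mevalonate arm and 0.24, 0.32 and 0.27 for NRF2.

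**Figure D4:**
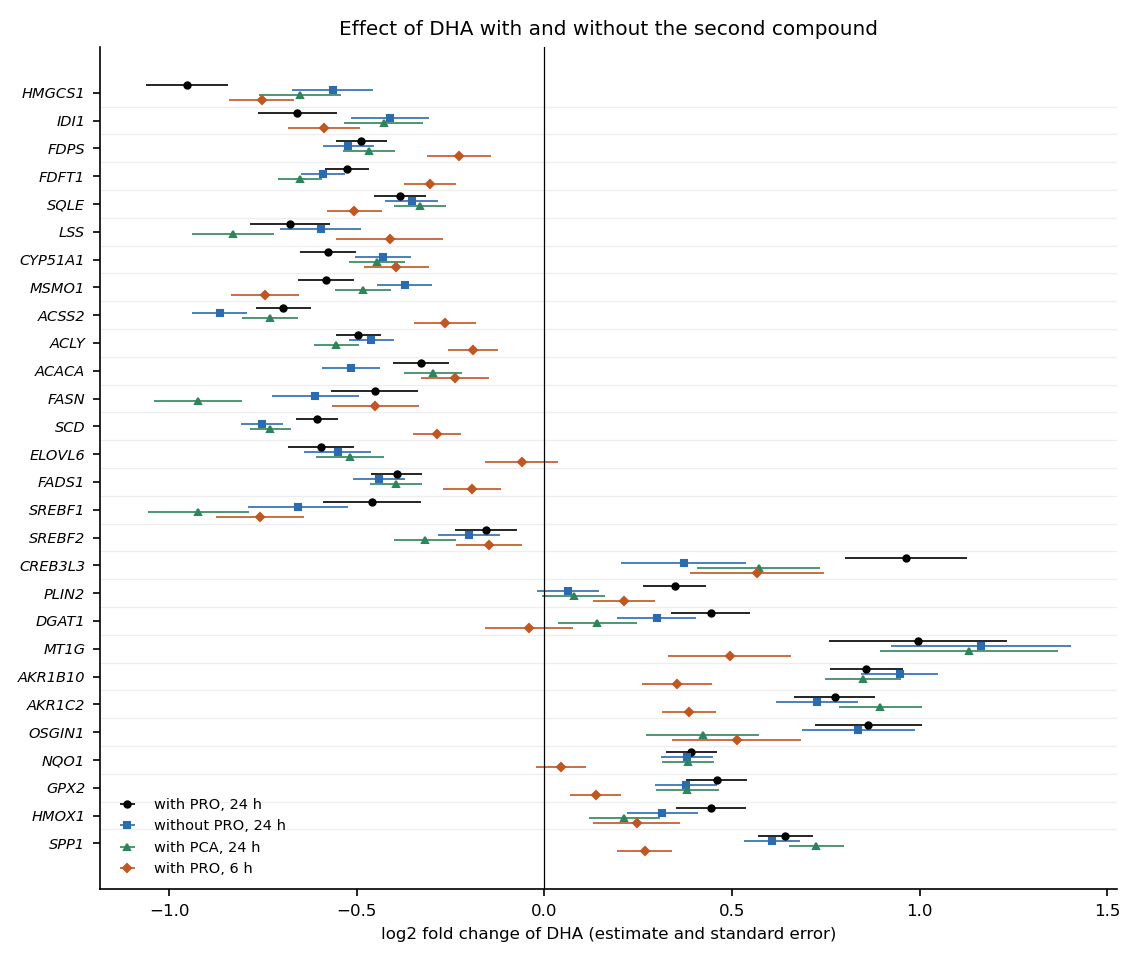
Log2 fold change of DHA (horizontal axis, estimate with its standard error) for 28 genes (rows) with PRO at 24 h (black), without PRO at 24 h (blue), with PCA at 24 h (green) and with PRO at 6 h (orange). The 3 estimates of 24 h nearly coincide for SQLE and NQO1, while CREB3L3, PLIN2 and HMGCS1 lie farthest out with PRO and FASN and SREBF1 lie farthest out with PCA.

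The 59 genes called with PRO but in neither other setting were 44 that fell and 15 that rose. None of them passed the test of the difference without the GC offset. Their falls came from transcripts of low GC content, with a median of 38.5%, against 46.5% for falls also called without PRO or with PCA. Examples, named after their values were seen, are the cargo receptor TMED7, with 199, 145 and 138 CPM with PRO and 97.4, 117 and 115 CPM with DHA + PRO, and the cytokine receptor IL1R1, with 90.4, 89.4 and 92.1 CPM with PRO and 71.0, 66.7 and 74.7 CPM with DHA + PRO. TMED7 had its largest ratio in replicate 1 (-1.03, against -0.30 and -0.26). With the GC offset it was still called, at -0.36 (adjusted p = 0.00825), and its difference from the effect without PRO passed, at -0.57 ± 0.11 SE (edgeR adjusted p = 0.0283). TMED7 and IL1R1 were each called in 2 of the 6 fits that left out a PRO or DHA + PRO library.

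Base composition moved with the comparison over all genes. The median GC content was 41.3% for falls, 54.6% for rises and 48.6% for all genes tested, and 32 of the 73 falls but 1 of the 26 rises lay in the lowest GC bin. From the lowest to the highest bin, the median log2 fold change was -0.13, -0.058, 0.0032, 0.070 and 0.17. In replicate 1 the median ratio ran from -0.30 in the lowest to 0.35 in the highest bin, in replicate 2 from -0.023 to -0.011 and in replicate 3 from -0.058 to 0.18. The effect of DHA without PRO had 0.045 and 0.017 in these bins, and that with PCA had 0.11 and -0.12. The GC offset brought the bins to between 0.011 and 0.015 and called 176 genes, 105 falling and 71 rising. It kept 84 of the 99 calls, 60 of 73 falls and 24 of 26 rises. Of the 40 genes called with PRO and in another setting it kept 39, and of the 59 called with PRO alone it kept 45. The 15 lost calls had a median GC content of 37.8%. Whether base composition accounts for any single call was not tested.

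**Figure D5:**
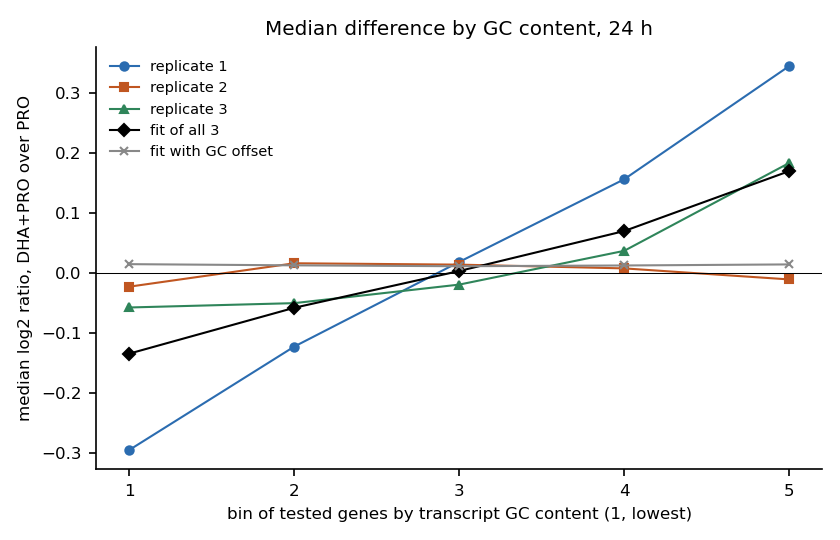
Median log2 ratio of DHA + PRO over PRO at 24 h (vertical axis) in 5 equal bins of the tested genes by transcript GC content (horizontal axis, 1 is the lowest), for each pair of libraries with the same replicate number, for the fit and for the fit with a GC offset. Replicate 1 runs from -0.30 to 0.35, replicate 2 stays near 0, and the GC offset flattens the line.

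At 6 h the same comparison called 10 of 11872 genes (0.0842%), 9 falling (0.0758%) and 1 rising (0.00842%), with 380 (3.2%) at an unadjusted p under 0.05. The falls included HMGCS1, IDI1, SQLE, MSMO1, STARD4, SREBF1 and BHLHE40, and AKR1C2 rose. All but the transcription factors SREBF1 and BHLHE40 were also called at 24 h. Of the 10 genes, 9 had the same sign at 24 h, and BHLHE40 had a positive estimate there. HMGCS1 had 331, 385 and 340.1 CPM with PRO and 231, 182 and 213 CPM with DHA + PRO at 6 h, lower in each DHA + PRO library (log2 fold change -0.75 ± 0.086 SE, edgeR adjusted p = 0.000132). MSMO1 fell by 0.75 on the log2 scale (adjusted p = 0.000198). SREBF1 had 114, 93.4 and 112 CPM with PRO and 54.0, 64.1 and 71.1 CPM with DHA + PRO (-0.76 ± 0.12, adjusted p = 0.00386), so it was called at 6 h and not at 24 h, and the difference between the times was 0.28 ± 0.19 (adjusted p = 0.649). SCD was not called at 6 h, at -0.29 ± 0.064 (adjusted p = 0.127).

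Of the 99 genes called at 24 h, 76 had the same sign at 6 h, against 47.0% of all genes compared, and their median effect in the direction of the call was 0.15. The test of 24 h minus 6 h called 1 of 12046 genes (0.0083%), with 989 (8.21%) at an unadjusted p under 0.05. This was FST, follistatin, a secreted binder of activins. It had 45.0, 71.2 and 69.6 CPM with PRO and 25.5, 46.7 and 40.7 CPM with DHA + PRO at 24 h, and 50.4, 35.5 and 52.3 CPM with PRO and 56.3, 42.7 and 47.7 CPM with DHA + PRO at 6 h. Its groups overlapped at both times. It was lower in every pair at 24 h, while at 6 h 1 pair was lower and 2 were higher, and the difference was -0.83 ± 0.15 on the log2 scale (edgeR adjusted p = 0.0305). The call was lost without the replicate block and in most fits that left out a library. The 6 h count was 23 without DHA + PRO replicate 1, 6 without DHA + PRO replicate 2, 5 without PRO replicate 2, 1 without the replicate block and 0 without replicate number 3. DHA + PRO replicate 2 at 6 h belongs to the later series of library numbers while the other replicates 2 belong to the earlier.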

How the data were processed

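HepG2 RNA was sequenced by the authors with the TruSeq RNA kit on an Illumina HiSeq, aligned to hg19 (GRCh37) with STAR and counted per RefSeq gene by iRNA-seq. As deposited, the values are raw read counts of 18932 genes with no normalization. The table also holds other values deposited by the authors, each gene's position and counted length, which were used for location only, with 1 added to starts. Promoters of chromosome 8 were not used here, and some genes are not reported here. Groups and replicate numbers came from the sample labels, and doses from the study's methods.

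Counts were analysed with edgeR 4.0.16 in R 4.3.3: filterByExpr, TMM scaling and the quasi-likelihood test of group plus replicate number over the 18 samples of a time, or over all 36 with the block within each time for 24 h minus 6 h. Benjamini-Hochberg adjustment ran over every tested gene. A call needs an adjusted p of at most 0.05, with an average log2 CPM above 0 as in the study's plots. CPM use TMM-scaled library sizes. SEs were taken as the absolute log2 fold change over the root of the F statistic, which was held above a small floor. An exact permutation test of 3 against 3 cannot give p below 0.1 and was not used. The fits were tested on simulated data. Column headers carry the same well numbers for a replicate number in every group, but the sources used here do not state that a number is a shared passage or day. The comparison was defined with the numbers as pairs, and they were kept. Residuals of PRO and DHA + PRO libraries with the same number correlated at 0.28, 0.26 and 0.23. Over all 45 same-numbered pairs of 24 h libraries the correlation ran from -0.20 to 0.36, with a mean of 0.16. No value for differently numbered libraries is given here, so these correlations do not show that the numbers pair. No 2 replicates of a group were duplicates, with chi-square at least 2.21 times its degrees of freedom in all 36 pairs. Counts are reads and not molecules, so precision covers reads only.

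Named genes were the 10 largest rises and falls among called genes without overlap, the genes the study names, up to 4 called and 2 highly expressed uncalled members of each list, and up to 5 genes called in each other contrast, with others marked. The members and the 20 gene lists were chosen with earlier results of these data known. Alternatives were DESeq2 1.42.0 size factors and Wald test, upper-quartile scaling, the likelihood ratio test, no filter, no expression limit, no block, library series as block, only the groups compared, a thinned deep library, leaving out samples and, added after the data were seen, a GC-content offset (a spline with 5 degrees of freedom per library, 18818 genes with a GC value). The offset's degrees of freedom were not counted. Figures used matplotlib 3.10.9.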

Additional observations from a re-analysis of the deposited data

Results flagged for a closer look

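FST differed between the times by a test of the difference itself: the effect of DHA with PRO at 24 h minus that at 6 h was -0.83 on the log2 scale (edgeR adjusted p = 0.0305).

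A further 6 genes named in the report moved one way in every pair of libraries with PRO at 24 h and the opposite way in every pair of another setting. The tests of these differences in the fit did not pass. The share of all tested genes with this pattern was not counted, so nothing is drawn from the number of genes. The cholesterol exporter ABCA1 was lower in 3 of 3 pairs with PRO and higher in 3 of 3 pairs without PRO, by a mean log2 ratio of 0.11, and in 3 of 3 pairs with PCA, by 0.22. The fitted differences were -0.38 (95% interval -0.62 to -0.14, adjusted p = 0.39) and -0.48 (95% interval -0.72 to -0.25, adjusted p = 0.177). ELOVL2 had a mean log2 ratio of 0.11 without PRO and a fitted difference of -0.31 (95% interval -0.57 to -0.054, adjusted p = 0.542). With PCA, other genes moved oppositely. PNPLA2 had -0.33 there and a difference of 0.53 (95% interval 0.12 to 0.94, adjusted p = 0.228), SCARB1 had -0.21 and 0.43 (95% interval 0.16 to 0.71, adjusted p = 0.192), and TOP2A had 0.085 and -0.15 (95% interval -0.35 to 0.059, adjusted p = 0.483). HSP90B1 had 0.13 at 6 h, and its 24 h minus 6 h difference was -0.24 ± 0.097 (adjusted p = 0.593). The transcripts of ABCA1, ELOVL2 and TOP2A, with higher ratios in the other setting, have 45.5%, 39.5% and 38.9% GC, and those of PNPLA2 and SCARB1 have 64.8% and 56.0%. With the GC offset none of these differences passed either, and the part of base composition in them was not tested.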

How the results depend on the processing

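With PRO at 24 h the main count was 99. It was 27 without the replicate block, 43 with library series as block, 217 with the likelihood ratio test, 174 with the DESeq2 Wald test, 340 without a filter, 176 with the GC offset and 28 to 1464 when a sample or a replicate number was left out. The highest came without PRO replicate 2, and 637 came without replicate number 2. For the difference from the effect without PRO (0), the likelihood ratio test gave 12, DESeq2 2, no filter 46, the GC offset 11 and left-out samples 0 to 308. For the difference from the effect with PCA (0), they were 37 by the likelihood ratio test, 11 by DESeq2, 214 without a filter and 0 to 1443 with samples left out. For 6 h (10), the counts were 1 without the block, 17 by the likelihood ratio test and by DESeq2, 24 without a filter and with the GC offset, 0 with only the groups compared and 0 to 24 with samples left out. For 24 h minus 6 h (1), they were 0 without the block, with library series as block and with only the groups compared, 6 by DESeq2, 4 without a filter and with the GC offset, and 0 to 327 with samples left out. The cause of these shifts was not tested. The other alternatives left each count within 1.5 times. No call of 24 h with PRO changed sign, all 27 calls without the replicate block were among the 99, and 13 genes were called in every fit, among them ACLY, ACSL3, ACSS2, AKR1B10, CPLX2, CYP51A1, ELOVL6, FDFT1, HMGCS1, MSMO1, SCD and SPP1. Their names follow from that count and were not fixed by rule. With 3 libraries a group, small changes of low genes may have been missed, and no detection limit for them is given.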

Other observations

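Several called genes outside the pathway lists are named here after their values were seen. C10orf10 (now DEPP1, a regulator of autophagy) had 29.8, 88.5 and 54.2 CPM with PRO and 15.3, 38.2 and 26.8 CPM with DHA + PRO, falling in every pair although the groups overlapped (log2 fold change -1.05 ± 0.18 SE, edgeR adjusted p = 0.00141). IGFBP1, a liver binder of insulin-like growth factors, had 329.6, 615 and 364 CPM with PRO and 153, 338 and 282 CPM with DHA + PRO (log2 fold change -0.77 ± 0.16 SE, edgeR adjusted p = 0.0132), and CTGF (now CCN2, a matrix-linked growth factor) had 375, 494 and 368 CPM with PRO and 275, 353 and 273 CPM with DHA + PRO (log2 fold change -0.45 ± 0.066 SE, edgeR adjusted p = 0.000281). All 3 were also called without PRO and with PCA, at -1.43 and -1.32 for C10orf10, -0.98 and -0.83 for IGFBP1, and -0.46 and -0.53 for CTGF. At 6 h they stood at -0.10, 0.031 and -0.11. For C10orf10 and IGFBP1 the libraries of replicate 2 were the highest on both sides. None of the 3 was called without the replicate block, with adjusted p of 0.379 for C10orf10, 0.42 for IGFBP1 and 0.309 for CTGF.

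ACSL3, a synthetase that activates long-chain fatty acids at lipid droplets, had 419.5, 359 and 309 CPM with PRO and 244, 249.6 and 225 CPM with DHA + PRO (log2 fold change -0.60 ± 0.088 SE, edgeR adjusted p = 0.000298), and glycerol kinase GK had 78.5, 63.5 and 56.7 CPM with PRO and 41.1, 47.3 and 41.4 CPM with DHA + PRO (log2 fold change -0.61 ± 0.10 SE, edgeR adjusted p = 0.00179). ACSL3 was also called without PRO (-0.50) and with PCA (-0.42), while GK stood at -0.11 and -0.033 there and was not called. SPP1, the secreted phosphoprotein osteopontin, rose from 266, 264 and 328 CPM to 421, 432 and 486 CPM (log2 fold change 0.64 ± 0.073 SE, edgeR adjusted p = 1.19e-05) and by 0.61 and 0.72 in the other settings. SAT1, which acetylates polyamines, fell (275, 264 and 269.8 CPM with PRO and 206, 209 and 195 CPM with DHA + PRO; log2 fold change -0.41 ± 0.074 SE, edgeR adjusted p = 0.00387), with -0.41 without PRO and -0.35 with PCA.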
